A study of Mus musculus with 8 samples.

Results

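Protocadherins are cell surface proteins of the cadherin superfamily, and 52 gene symbols that start with Pcdh were found among the 18603 symbols with an H3K27me3 measurement. Of these, 40 belong to the 3 clusters Pcdha, Pcdhb and Pcdhg and 12 lie outside them. Genes that share a start site share 1 window of 6000 bp around it, so the 52 symbols occupied 37 of 18507 distinct windows. Pcdhb had 21 symbols in 21 windows and the genes outside the clusters 12 in 12 windows. Pcdha had 10 symbols in 2 windows and Pcdhg 9 in 2. None of the 37 windows was at 0 in any library, whereas 525 of all windows were at 0 in every library.

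The cells were naive CD4+ T cells from lymph nodes of 129SV/B6 mice, whose age was not given in the sources used here. The 4 genotypes were Ezh1 -/- (Ezh1 KO), Ezh2 fl/fl CD4-cre (Ezh2 KO), Ezh1 -/- Ezh2 fl/fl CD4-cre (double KO) and WT, and each gave 1 library for H3K27me3 ChIP-seq and 1 for RNA-seq, a total of 8. In Ezh2 fl/fl CD4-cre mice a recombinase driven by Cd4 regulatory sequence deletes a floxed part of Ezh2 in developing T cells, whereas the Ezh1 deletion is present in every cell. With 1 library per genotype and assay no replicate, SD or test exists, and "higher" and "lower" compare 1 library with another. All comparisons with WT share its 1 library.

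Polycomb repressive complex PRC2 uses either Ezh1 or Ezh2 as its enzyme and places H3K27me3, a histone mark found at silent promoters of developmental and cell type specific genes. The clustered protocadherins lie in tandem, and neurons choose among their promoters to give each cell its own combination of surface proteins. The choice involves the DNA-binding protein CTCF, the cohesin ring that holds DNA loops, DNA methylation and the chromatin regulator Smchd1. The protocadherins outside the clusters are mostly of the delta class, which serve cell adhesion and axon growth in the nervous system.

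ChIP depth, from the height of 1 read, was 87.1 M reads in the Ezh1 KO, 78.2 M in the Ezh2 KO, 88.2 M in the double KO and 79.7 M in WT, and member windows held 99.2 to 1190 read equivalents. RNA depth was 70.4 M reads in Ezh1 KO cells, 40.7 M in Ezh2 KO cells, 94.1 M in double KO cells and 36.1 M in WT cells. Ezh1 RNA was 0.196 in Ezh1 KO cells, 1.12 in Ezh2 KO cells, 0.194 in double KO cells and 1.05 in WT cells, and Ezh2 RNA was 0.913 in Ezh1 KO cells, 1.08 in Ezh2 KO cells, 1.17 in double KO cells and 0.925 in WT cells. The Ezh2 values average 21 exons and do not check the deletion of a few of them, so the Ezh2 genotype rests on the labels. All 10 naive CD4+ T cell markers were at 1 or more in WT, and their summed RNA was 199.8 in Ezh1 KO cells, 198.5 in Ezh2 KO cells, 197.8 in double KO cells and 223.6 in WT cells. Summed RNA of 6 B cell markers was 2.91 in Ezh1 KO cells, 4.68 in Ezh2 KO cells, 7.88 in double KO cells and 2.38 in WT cells. That of 6 myeloid and dendritic markers was 0.765 in Ezh1 KO cells, 0.900 in Ezh2 KO cells, 1.78 in double KO cells and 0.481 in WT cells, that of 7 CD8 T and NK markers 2.70 in Ezh1 KO cells, 6.67 in Ezh2 KO cells, 4.60 in double KO cells and 3.25 in WT cells, and that of 4 plasma cell markers 2.97 in Ezh1 KO cells, 4.84 in Ezh2 KO cells, 3.80 in double KO cells and 3.51 in WT cells. The 5 measured neuron and glia markers and the 6 fibroblast markers were below 0.1 in every library, as were 5 of 6 endothelial markers, the exception being Pecam1, which T cells also express.

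The sequence at the window centre differed greatly among the protocadherins outside the clusters, and 5 are shown because they pair the level of the mark with CpG content in different ways. Pcdh8 and Pcdh17 had the mark, with CG pairs near the number of the median window at Pcdh8 and more at Pcdh17. Pcdh15, with many CG pairs, and Pcdh9, with few, had similar intermediate levels in WT, with areas of 24.0 and 26.5. Pcdh20 had few CG pairs and a low level. Each line gives 300 bases of mm9 on the gene's strand, starting 250 bases before the window centre, with every CG in capitals.
Pcdh8: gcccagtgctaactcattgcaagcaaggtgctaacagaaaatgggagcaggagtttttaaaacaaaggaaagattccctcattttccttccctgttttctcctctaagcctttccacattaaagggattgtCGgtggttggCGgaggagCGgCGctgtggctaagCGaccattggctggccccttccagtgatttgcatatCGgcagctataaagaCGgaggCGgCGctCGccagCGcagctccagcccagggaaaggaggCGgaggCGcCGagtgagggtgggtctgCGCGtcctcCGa
Pcdh17: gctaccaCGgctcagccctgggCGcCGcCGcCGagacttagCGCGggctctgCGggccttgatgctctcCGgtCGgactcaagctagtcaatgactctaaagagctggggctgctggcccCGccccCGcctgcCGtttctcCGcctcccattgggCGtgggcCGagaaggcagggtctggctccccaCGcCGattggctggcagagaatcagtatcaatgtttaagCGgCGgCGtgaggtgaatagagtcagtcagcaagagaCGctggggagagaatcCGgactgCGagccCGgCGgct
Pcdh15: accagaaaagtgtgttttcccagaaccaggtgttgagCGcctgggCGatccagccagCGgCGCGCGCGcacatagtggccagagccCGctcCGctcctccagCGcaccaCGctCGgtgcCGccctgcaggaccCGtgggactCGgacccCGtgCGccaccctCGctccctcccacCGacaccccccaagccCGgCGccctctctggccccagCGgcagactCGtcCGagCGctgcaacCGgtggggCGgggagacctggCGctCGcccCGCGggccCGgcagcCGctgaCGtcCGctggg
Pcdh9: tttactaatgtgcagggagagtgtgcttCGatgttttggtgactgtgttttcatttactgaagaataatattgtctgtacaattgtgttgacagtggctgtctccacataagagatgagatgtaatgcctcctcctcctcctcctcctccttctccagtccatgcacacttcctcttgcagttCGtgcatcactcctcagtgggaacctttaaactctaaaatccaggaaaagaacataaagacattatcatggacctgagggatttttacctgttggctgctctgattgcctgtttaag
Pcdh20: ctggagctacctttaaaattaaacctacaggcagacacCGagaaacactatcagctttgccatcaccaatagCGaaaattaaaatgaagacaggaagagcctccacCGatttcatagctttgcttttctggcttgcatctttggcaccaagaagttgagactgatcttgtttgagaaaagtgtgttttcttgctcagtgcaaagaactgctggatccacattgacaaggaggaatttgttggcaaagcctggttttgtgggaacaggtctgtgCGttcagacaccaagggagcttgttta
They lie at chr14:80171058-80171357 on the minus strand, chr14:84843120-84843419 on the plus strand, chr10:72561840-72562139 on the plus strand, chr14:94287902-94288201 on the minus strand and chr14:88871154-88871453 on the minus strand, each spanning the start on which the window is centred. The Pcdh8 sequence holds 17 CG pairs, that of Pcdh17 26, that of Pcdh15 35, that of Pcdh9 2 and that of Pcdh20 4. Over 17982 windows with signal, 300 bases at the centre held a median of 19 CG pairs, with quartiles of 6 and 29, and 2.16% held none. In a promoter set from RefSeq (GRCm38), Pcdh8 held 14 CG pairs, Pcdh17 26, Pcdh15 8, Pcdh9 18 and Pcdh20 4, against a median of 7. The low count of Pcdh9 and the high count of Pcdh15 thus depend on the annotation used. Pcdh8 lay slightly below the median in the 300 bases of mm9 but above it in the RefSeq set. In the 1000 bp around its window centre it held 60 CG pairs, against a median of 49.5 over windows with signal.

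H3K27me3 in WT was highest at protocadherins outside the clusters and low at Pcdha and Pcdhb, with Pcdhg between. H3K27me3 is given as window area, the coverage per M reads added up over bins of 25 bp. A window was called marked when its WT area reached 4 times background. Background is the median of the 7071 windows whose genes had the highest WT RNA, which set the threshold at 40.6. By this rule 12.0% of all windows were marked. Of the 12 windows outside the clusters 5 were marked, and of the 25 clustered windows 0 were. At 2 times background the counts were 10 of 12 and 2 of 25, against 31.2% of all windows, and at 6 times they were 0 and 0, against 2.45%. The median area outside the clusters was 44.8 in Ezh1 KO cells, 27.2 in Ezh2 KO cells, 41.0 in double KO cells and 33.6 in WT cells. That of the 21 Pcdhb windows was 12.7 in Ezh1 KO cells, 12.8 in Ezh2 KO cells, 12.9 in double KO cells and 12.0 in WT cells, near background. The background medians were 9.82 in Ezh1 KO cells, 11.1 in Ezh2 KO cells, 10.4 in double KO cells and 10.1 in WT cells, and the medians of all windows were 14.2 in Ezh1 KO cells, 13.7 in Ezh2 KO cells, 13.7 in double KO cells and 13.6 in WT cells.

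**Figure D1:**
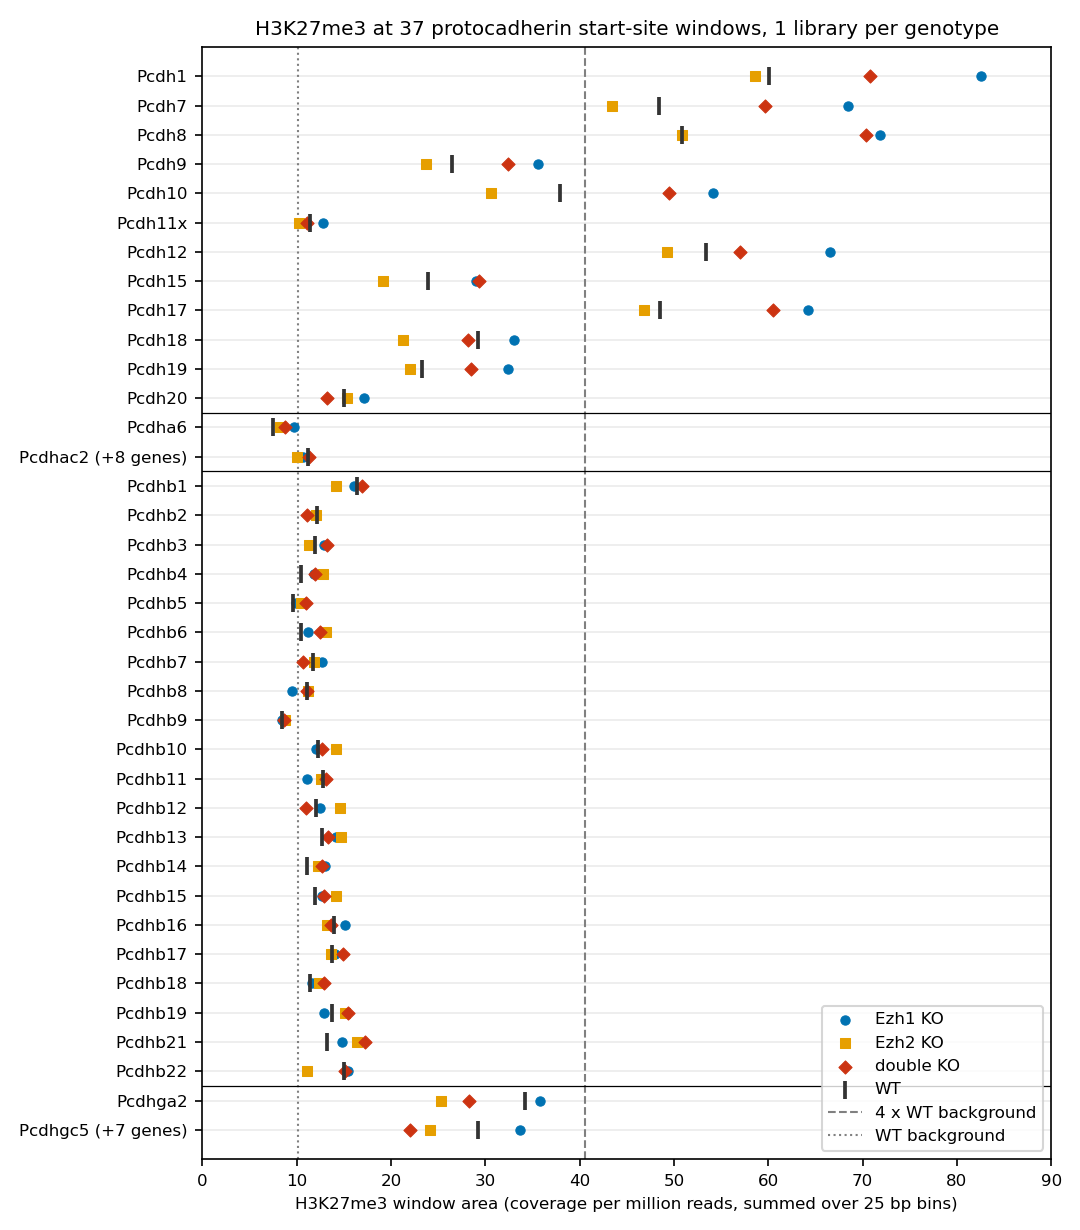
H3K27me3 window area (coverage per M reads, as a sum of 25 bp bins) at each of 37 protocadherin windows, 1 point per library, with the WT background median of 10.1 (dotted) and the marked threshold of 40.6 (dashed). The windows outside the clusters spread from 11.4 to 60.1 in WT, while the 21 Pcdhb windows sit between 8.46 and 16.4.

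Among delta-1 protocadherins, which carry a long cytoplasmic tail with conserved motifs, Pcdh1 had the highest area of all members. Pcdh1 functions at epithelial junctions, and its area was 82.5 in Ezh1 KO cells, 58.6 in Ezh2 KO cells, 70.7 in double KO cells and 60.1 in WT cells. Pcdh7, an adhesion protein first described in brain and heart, had 68.5 in Ezh1 KO cells, 43.5 in Ezh2 KO cells, 59.7 in double KO cells and 48.5 in WT cells. The pattern over the genotypes was alike at both, with the Ezh1 KO highest and the Ezh2 KO lowest. Pcdh9, found in cortical neurons, had 35.6 in Ezh1 KO cells, 23.8 in Ezh2 KO cells, 32.4 in double KO cells and 26.5 in WT cells, below the marked threshold of WT. Its highest bin was 3.67 times the window mean in WT, against 1.88 times at Pcdh12, the lowest of all members. Windows near background reached more, 4.70 times at Pcdha6 and 4.16 times at Pcdhac2, so this value alone does not show a narrow peak. The X-linked Pcdh11x had 12.8 in Ezh1 KO cells, 10.3 in Ezh2 KO cells, 11.1 in double KO cells and 11.4 in WT cells, in the range of background. The spread among these 4 members in WT exceeded the spread between genotypes at any of them.

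The delta-2 members, several of which bind the WAVE complex that drives actin assembly, ranged in WT from 23.3 at Pcdh19 to 50.9 at Pcdh8. Pcdh8, whose rat counterpart arcadlin acts at synapses, had an area of 71.8 in Ezh1 KO cells, 50.8 in Ezh2 KO cells, 70.4 in double KO cells and 50.9 in WT cells. Pcdh17, a synaptic adhesion protein, had 64.2 in Ezh1 KO cells, 46.8 in Ezh2 KO cells, 60.5 in double KO cells and 48.6 in WT cells. Pcdh10, which acts in axon growth of the striatum, had 54.1 in Ezh1 KO cells, 30.6 in Ezh2 KO cells, 49.5 in double KO cells and 37.9 in WT cells, and was the window nearest below the threshold, as Pcdh7 was the nearest above it. Pcdh8 and Pcdh17 were at similar levels in the Ezh2 KO and WT and higher in both libraries that lack Ezh1. Pcdh18, which binds the adaptor Dab1, had 33.1 in Ezh1 KO cells, 21.3 in Ezh2 KO cells, 28.2 in double KO cells and 29.3 in WT cells. Pcdh19, the X-linked gene mutated in a human epilepsy of girls, had 32.4 in Ezh1 KO cells, 22.0 in Ezh2 KO cells, 28.4 in double KO cells and 23.3 in WT cells.

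The remaining 3 genes outside the clusters had unlike levels. Pcdh12, an endothelial adhesion protein, had an area of 66.5 in Ezh1 KO cells, 49.2 in Ezh2 KO cells, 57.0 in double KO cells and 53.3 in WT cells, the second highest of all members in WT. Pcdh15, part of the tip link of inner ear hair cells, had 29.0 in Ezh1 KO cells, 19.1 in Ezh2 KO cells, 29.3 in double KO cells and 24.0 in WT cells. Pcdh20 had 17.1 in Ezh1 KO cells, 15.4 in Ezh2 KO cells, 13.2 in double KO cells and 15.0 in WT cells. In WT the order from high to low was Pcdh1, Pcdh12, Pcdh8, Pcdh17, Pcdh7, Pcdh10, Pcdh18, Pcdh9, Pcdh15, Pcdh19, Pcdh20 and Pcdh11x. Neighbours such as Pcdh17 and Pcdh7 (48.6 and 48.5) cannot be ordered, since no replicate gives their spread.

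The clustered genes lie on chromosome 18 with Pcdh1 and Pcdh12 downstream, and 27 of the 37 windows fall within 1360 kb there. Of the Pcdha windows, that labelled Pcdhac2, shared by 9 symbols, had an area of 10.7 in Ezh1 KO cells, 10.1 in Ezh2 KO cells, 11.3 in double KO cells and 11.2 in WT cells. Pcdha6 had 9.75 in Ezh1 KO cells, 8.24 in Ezh2 KO cells, 8.79 in double KO cells and 7.52 in WT cells, the lowest WT area of all members. Both were near background in all 4 libraries. In Pcdhb, the highest, middle and lowest WT areas were those of Pcdhb1, Pcdhb12 and Pcdhb9. Pcdhb1 had 16.1 in Ezh1 KO cells, 14.2 in Ezh2 KO cells, 17.0 in double KO cells and 16.4 in WT cells. Pcdhb12 had 12.5 in Ezh1 KO cells, 14.6 in Ezh2 KO cells, 11.0 in double KO cells and 12.0 in WT cells, and Pcdhb9 had 8.44 in Ezh1 KO cells, 8.77 in Ezh2 KO cells, 8.65 in double KO cells and 8.46 in WT cells.

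The 2 Pcdhg windows stood above the other clustered windows in every library. Pcdhga2 had an area of 35.7 in Ezh1 KO cells, 25.3 in Ezh2 KO cells, 28.2 in double KO cells and 34.2 in WT cells. The overlapping window labelled Pcdhgc5, shared by 8 symbols, had 33.7 in Ezh1 KO cells, 24.1 in Ezh2 KO cells, 22.1 in double KO cells and 29.2 in WT cells. The Ezh2 KO and the double KO were the 2 lowest libraries at both. The first ends at 37831607 and the second starts at 37830989, so a small part of each is shared and they are not fully separate measurements. The shared Pcdha and Pcdhg windows cover the first exon of the merged gene, and 11 of 12 Pcdhac2 exons and 9 of 10 Pcdhgc5 exons lie beyond them, the last exon starting 254.7 kb from the window centre for Pcdhac2 and 165.6 kb for Pcdhgc5. The promoters of the later variable exons are therefore not analysed here, and the low Pcdha values do not describe them.

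Within the same span lay 8 windows of other genes, and 0 of them were marked. The highest in WT was Arap3, a GTPase regulator chosen after its values were seen, with 43.9 in Ezh1 KO cells, 25.6 in Ezh2 KO cells, 30.1 in double KO cells and 29.9 in WT cells.

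**Figure D2:**
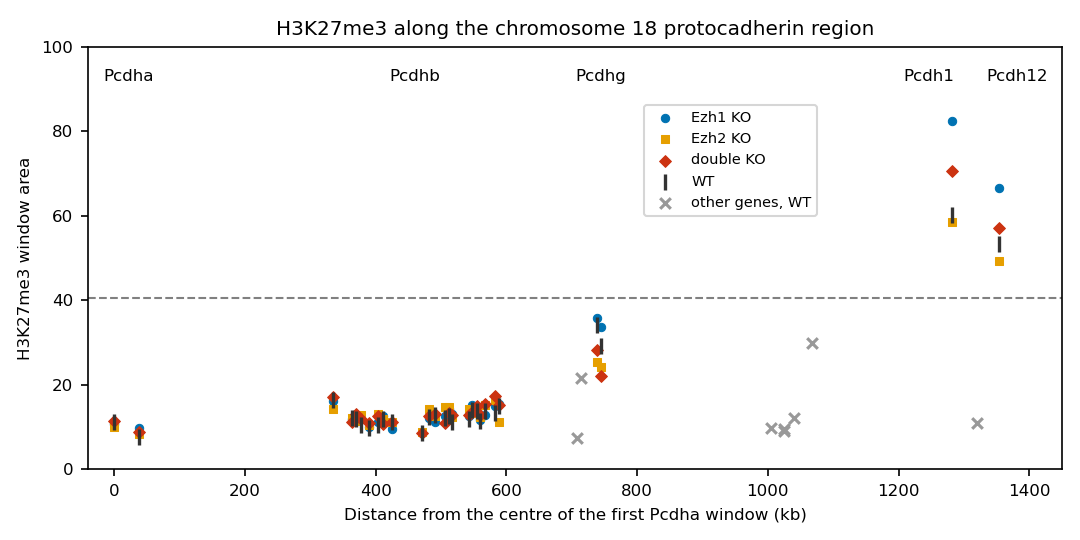
H3K27me3 window area along the chromosome 18 region, by distance in kb from the centre of the first Pcdha window, with 1 point per library for protocadherins and grey crosses for the WT values of 8 other genes. The Pcdhb windows lie between 8.44 and 17.2, Pcdhg between 22.1 and 35.7, and Pcdh1 and Pcdh12 above the dashed WT threshold of 40.6.

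Relative to the reads of each library, the Ezh1 KO had more H3K27me3 than WT at the protocadherins outside the clusters. With neither input nor spike-in, a change of the mark at all windows alike would not show in such values. Ratios are log2 of area plus 1 in the mutant over area plus 1 in WT. Their median was 0.40 outside the clusters, against 0.09 over all windows and 0.29 over the 2227 windows marked in WT. All 12 ratios were above 0, as were 64.3% over all windows and 92.8% over marked windows. The largest were 0.50 at Pcdh10, with a 95% counting interval of 0.35 to 0.68, 0.49 at Pcdh7 (0.35 to 0.65) and 0.49 at Pcdh8 (0.36 to 0.64). The intervals (exact Clopper-Pearson) cover counting error alone, reads amplified by PCR and lacking molecular identifiers not being independent, and they hold no variation between animals or preparations. The interval lay above 0 at 9 of 12, against 29.2% of all windows and 77.6% of marked ones. It reached below 0 at Pcdh11x, Pcdh18 and Pcdh20. No member was 2-fold different, as were 0.0336% of all windows, and 7 of the 12 were at least 1.25-fold higher, against 18.5% of all and 42.7% of marked windows. None of the 37 members was 1.25-fold lower, against 4.37% of all windows. The share of members above 0 was thus near that of marked windows. Scaling by the median of ratios left all 12 ratios above 0, with a median of 0.30. With the highest bin in place of the area, at a pseudocount of 0.01, Pcdh11x turned to -0.07.

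The clustered windows had a median ratio of 0.05 in the Ezh1 KO, which became -0.05 under median-of-ratios scaling. Of the 25, 17 were higher, near the 64.3% of all windows, and 1 was at least 1.25-fold higher, against 18.5% of all windows. This was Pcdha6, at 0.34 with an interval that reached 0. Pcdhgc5 was at 0.20 and Pcdhga2 at 0.06, and the ratio of Pcdhga2 turned to -0.04 under median-of-ratios scaling.

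In the Ezh2 KO the windows outside the clusters were at or slightly below WT. The median ratio was -0.13, against -0.01 over all windows and -0.12 over marked windows. Lower values were seen at 11 of 12, against 51.4% of all and 79.9% of marked windows, Pcdh20 being the exception at 0.03. Under median-of-ratios scaling Pcdh8 also lay above 0, and scaling to background windows moved the median of all windows to -0.13 and put all 12 below 0. By the highest bin 8 of 12 were lower, against 47.3% of all windows, and Pcdh8, Pcdh12, Pcdh15 and Pcdh19 were higher. The interval lay below 0 at 3, Pcdh18 (-0.44, interval -0.68 to -0.23), Pcdh15 (-0.31, interval -0.57 to -0.08) and Pcdh10 (-0.30, interval -0.50 to -0.12), against 15.8% of all windows. Pcdh15 was at 0.07 by the highest bin with a pseudocount of 0.01. The 5 marked members ranged from -0.15 at Pcdh7 to -0.00138 at Pcdh8, and none of their intervals excluded 0. No member was 2-fold different, as were 0.0335% of all windows, and 3 were at least 1.25-fold lower, Pcdh18, Pcdhga2 and Pcdhb22, against 7.57% of all windows.

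In the clusters, the Ezh2 KO had a smaller area per M reads than WT at Pcdhg, while Pcdhb windows lay on both sides of WT. Pcdhga2 was at -0.42, with a counting interval of -0.65 to -0.23, and Pcdhgc5 at -0.27 (-0.50 to -0.06). The median of the 25 clustered windows was 0.05, or -0.07 when scaled to background windows. Among the 21 Pcdhb windows 14 were higher and 7 lower, against 48.6% of all windows higher. Pcdhb22 was at -0.41 and Pcdhb21 at 0.29, the only Pcdhb windows whose interval excluded 0, and both were chosen after their values were seen. The interval excluded 0 at 2 of the 21, against 24.1% of all windows.

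By area per M reads, the double KO had more H3K27me3 than WT at most windows outside the clusters and less at Pcdhg. A loss or gain of the mark at all windows alike would not show in these ratios, so they do not give the total amount. Outside the clusters the median ratio was 0.28, against 0.05 over all windows and 0.12 over marked windows. Of the 12, 9 were higher, against 59.7% of all and 73.6% of marked windows, and Pcdh11x, Pcdh18 and Pcdh20 were lower, with intervals that included 0. The largest ratio was 0.46 at Pcdh8 (interval 0.33 to 0.61), followed by 0.37 at Pcdh10 (0.22 to 0.55). The interval lay above 0 at 8 of 12, against 18.5% of all and 45.3% of marked windows. At least 1.25-fold higher were 2 of the 12, Pcdh8 and Pcdh10, against 11.0% of all windows and 303 of the 2227 marked windows. In the clusters Pcdhb21 was also higher and Pcdhgc5 lower by this threshold, with 6.11% of all windows lower. No member was 2-fold different, as were 0.173% of all windows. These directions held under TMM, median-of-ratios and background scaling, whereas with the highest bin in place of the area Pcdh7 turned lower.

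At Pcdhg the double KO was below WT by area, with ratios of -0.27 at Pcdhga2 (interval -0.47 to -0.08) and -0.39 at Pcdhgc5 (-0.62 to -0.19). An interval below 0 was found at 9.19% of all windows and 10.4% of marked ones. Relative to the marked median of the same library, the median Pcdhg area was 0.541 in Ezh1 KO cells, 0.520 in Ezh2 KO cells, 0.442 in double KO cells and 0.616 in WT cells, while the median outside the clusters was 0.698 in Ezh1 KO cells, 0.572 in Ezh2 KO cells, 0.720 in double KO cells and 0.652 in WT cells. With the highest bin in place of the area and the same pseudocount of 1, Pcdhga2 in the double KO turned to 0.03 and Pcdhgc5 in the Ezh2 KO to 0.02. With a pseudocount of 0.01 these 2 ratios were 0.092 and 0.091. At that setting Pcdhga2 in the Ezh2 KO was at -0.13 and Pcdhgc5 in the double KO at -0.23. All 6 B cell markers were higher in RNA in the double KO than in WT, and none was at 0 in any library. Their sum was highest in the double KO (7.88) and the Ezh2 KO (4.68), against 2.38 in WT. These 2 libraries had the lowest Pcdhg areas. The myeloid, CD8 T and NK, and plasma cell sums were also highest in them, while the endothelial sum, mostly Pecam1, was lowest in them. Single markers of these lists differed. Igj was 1.79 in Ezh2 KO cells and 0.260 in WT cells, but Xbp1, Sdc1 and Prdm1 were below WT there, the last 2 also in the double KO. Gzma was 2.90 in Ezh2 KO cells, 1.13 in double KO cells and 0.226 in WT cells. Prf1 and Itgam were below WT in both mutants, Cd8b1 in the Ezh2 KO, and Klrb1c and Ncr1 in the double KO. The part of such cells in the result was not tested. In bulk samples, fewer cells of a type and less RNA or less of a mark per cell cannot be told apart.

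**Figure D3:**
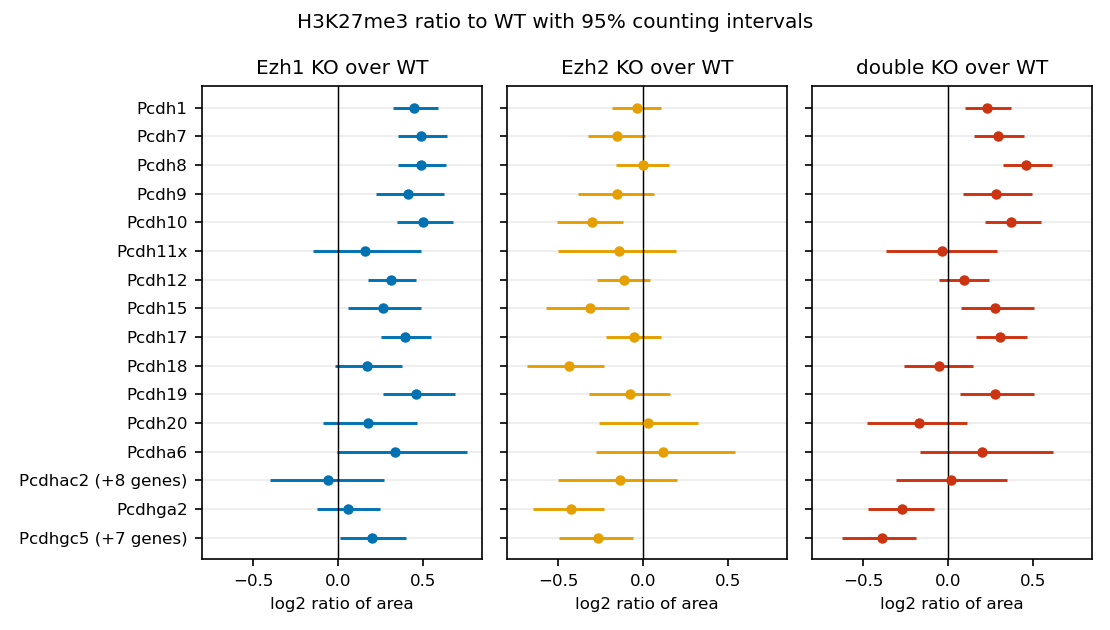
Log2 ratio of H3K27me3 area in the Ezh1 KO, Ezh2 KO and double KO over WT at the 12 windows outside the clusters and the 4 Pcdha and Pcdhg windows, with 95% counting intervals as bars. Pcdh7, Pcdh8 and Pcdh10 lie right of 0 in the Ezh1 KO and the double KO, and both Pcdhg windows lie left of 0 in the Ezh2 KO and the double KO.

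Setting the double KO against each single KO asks what the loss of the second enzyme adds to that of the first. Against the Ezh1 KO, the double KO had a median ratio of -0.19 outside the clusters, against -0.05 over all windows and -0.17 over marked windows. Of the 12, 11 were lower, against 58.1% of all and 90.2% of marked windows, and Pcdh15 was at 0.02. By the highest bin with a pseudocount of 0.01 only 7 of 12 were lower, against 61.0% of all windows, with a median of -0.11, and Pcdh8, Pcdh10, Pcdh12, Pcdh17 and Pcdh19 were higher. Pcdhga2 was at -0.33 (interval -0.53 to -0.15) and Pcdhgc5 at -0.59 (-0.82 to -0.41), the lowest ratio of any member in the 5 comparisons, although Pcdhga2 was at 0.07 by the highest bin with the same smaller pseudocount. Against the Ezh2 KO, the median outside the clusters was 0.37, with 0.05 over all and 0.23 over marked windows, and 11 of 12 were higher, against 58.2% of all and 91.3% of marked windows. The highest ratio was 0.68 at Pcdh10 (interval 0.52 to 0.87), followed by 0.59 at Pcdh15 (0.39 to 0.85), which was at 0.0018 by the highest bin with the smaller pseudocount. At least 1.5-fold different were Pcdhgc5 against the Ezh1 KO, with 2.51% of all windows, and Pcdh10 and Pcdh15 against the Ezh2 KO, with 0.822% of all windows. At least 1.25-fold lower than in the Ezh1 KO were Pcdh20, Pcdhga2 and Pcdhgc5, 3 of the 37, against 12.2% of all windows. At least 1.25-fold higher than in the Ezh2 KO were 8 of the 12 and Pcdhb22, against 10.8% of all windows and 617 of the 2227 marked windows. Pcdhb12 was lower by this threshold, with 4.82% of all windows. No member reached 2-fold in either comparison, as did 0.224% of all windows against the Ezh1 KO and 0.0335% against the Ezh2 KO.

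The CpG content of the 1000 bp around each window centre, a property of the genome that did not choose the members, was low throughout Pcdhb. The ratio of observed to expected CpG had a median of 0.65 outside the clusters (0.18 to 0.83), 0.40 in Pcdhb (0.16 to 0.52), 0.74 in Pcdha and 0.56 in Pcdhg, against 0.63 over all windows with signal. A ratio of at least 0.6 was found at 7 of 12 windows outside the clusters, 0 of 21 Pcdhb windows and 53.0% of all windows. Of the 5 marked members, 4 were at 0.6 or more, against 61.9% of marked and 77.4% of background windows. Members with and without the mark lay on both sides of 0.6. Pcdh12 was marked with a ratio of 0.21, and Pcdh15, whose sequence above is the richest in CG pairs of the 5 printed, had 0.83 and was not. In the promoter set from RefSeq, Pcdh15 had 0.42 and Pcdh9, at 0.18 in mm9, had 0.62, against a median of 0.39. In mm9, Pcdha had the mark at background level with 0.72 and 0.75. Across the 37 windows, the Spearman correlation of CpG ratio with WT area was 0.31, and over all windows with signal -0.09. It was 0.33 within the 12 windows outside the clusters and 0.05 within the 25 clustered windows, 2 groups that differ in both measures. These are descriptions, since neighbouring windows share sequence and library.

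**Figure D4:**
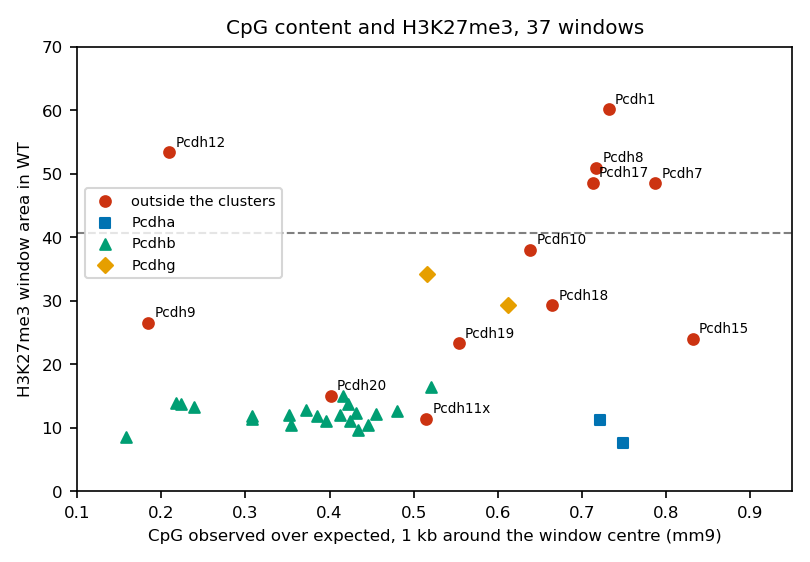
H3K27me3 window area in WT against CpG observed over expected in the 1000 bp around the window centre (mm9), 1 point per protocadherin window, with the marked threshold of 40.6 dashed. Pcdhb windows sit below 0.6 and below an area of 17, and Pcdh12 is marked at a CpG ratio of 0.21.

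RNA of the protocadherins was near the limit of detection in all 4 genotypes. RNA is given as peak coverage per M reads averaged across the exons of a gene, which is not divided by length. None of the 37 protocadherin rows reached 1 in any library, against 24.3% of 22410 genes that did, and 2 reached 0.1 in some library, against 49.2% of genes. No member reached the minimum of 1 for a comparison, where 2-fold differences were found in 0.442% of genes for the Ezh1 KO against WT, 1.5% for the Ezh2 KO against WT, 1.24% for the double KO against WT, 0.883% for the double KO against the Ezh1 KO and 0.786% for the double KO against the Ezh2 KO. At a minimum of 0.1, 2 members entered each comparison and 0 were 2-fold different, against 0.65% of genes for the Ezh1 KO against WT, 1.79% for the Ezh2 KO against WT, 1.45% for the double KO against WT, 1.08% for the double KO against the Ezh1 KO and 1.25% for the double KO against the Ezh2 KO.

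The 2 rows above 0.1 were Pcdhg rows. Pcdhga2 had 0.102 in Ezh1 KO cells, 0.130 in Ezh2 KO cells, 0.195 in double KO cells and 0.128 in WT cells, and its exon median was 0.0711 in Ezh1 KO cells, 0.0978 in Ezh2 KO cells, 0.228 in double KO cells and 0.146 in WT cells. Pcdhgc5 had 0.0839 in Ezh1 KO cells, 0.108 in Ezh2 KO cells, 0.130 in double KO cells and 0.116 in WT cells, and its exon median was 0.0622 in Ezh1 KO cells, 0.0860 in Ezh2 KO cells, 0.0916 in double KO cells and 0.111 in WT cells. The double KO was highest at both by the mean, and at Pcdhgc5 WT was highest by the median. Pcdhgc5 is a merged row of 10 exons, and 3 of the 4 Pcdhga2 exons overlap it, so the rows are not independent and neither can be assigned to 1 isoform. The log2 ratio of value plus 0.1 in the double KO over WT was 0.37 for Pcdhga2 and 0.10 for Pcdhgc5, both below 2-fold. The B cell markers, at 7.88 in the double KO and 2.38 in WT, were highest in the same library, and their part in these values was not tested.

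The 21 Pcdhb genes have a single exon each, so their value can be given in units of 1 read. The value of 1 read was 0.0142 in Ezh1 KO cells, 0.0246 in Ezh2 KO cells, 0.0106 in double KO cells and 0.0277 in WT cells. The median peak was 2 reads in the Ezh1 KO and 1 read in each of the others. The highest were 4.00 reads at Pcdhb11 in the Ezh1 KO, 3.00 at Pcdhb6 in the Ezh2 KO, 4.48 at Pcdhb16 in the double KO and 3.00 at Pcdhb9 in WT. Of the 21 genes, 0 were at 0 in Ezh1 KO cells, 1 in Ezh2 KO cells, 0 in double KO cells and 4 in WT cells. At a height of 1 read the value only restates the depth of the library, and no ratio is given.

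Outside the clusters the highest RNA was that of Pcdh7, with 0.0391 in Ezh1 KO cells, 0.0379 in Ezh2 KO cells, 0.0323 in double KO cells and 0.0415 in WT cells. A difference in RNA between marked and unmarked genes was not detectable at this depth. Pcdh1 had 0.00406 in Ezh1 KO cells, 0.0140 in Ezh2 KO cells, 0.00759 in double KO cells and 0.0119 in WT cells, and Pcdh8 was listed at 0 in the Ezh2 KO, the double KO and WT and had 0.00947 in the Ezh1 KO. Pcdh11x, at background for the mark, had 0.00942 in Ezh1 KO cells, 0.0159 in Ezh2 KO cells, 0.0072 in double KO cells and 0.00593 in WT cells. The other 8 genes ranged from 0.00266 to 0.0313 over all libraries. The larger H3K27me3 area in the Ezh1 KO at Pcdh7, Pcdh8 and Pcdh10 was thus seen at genes whose RNA was at most 0.0415 in every genotype.

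**Figure D5:**
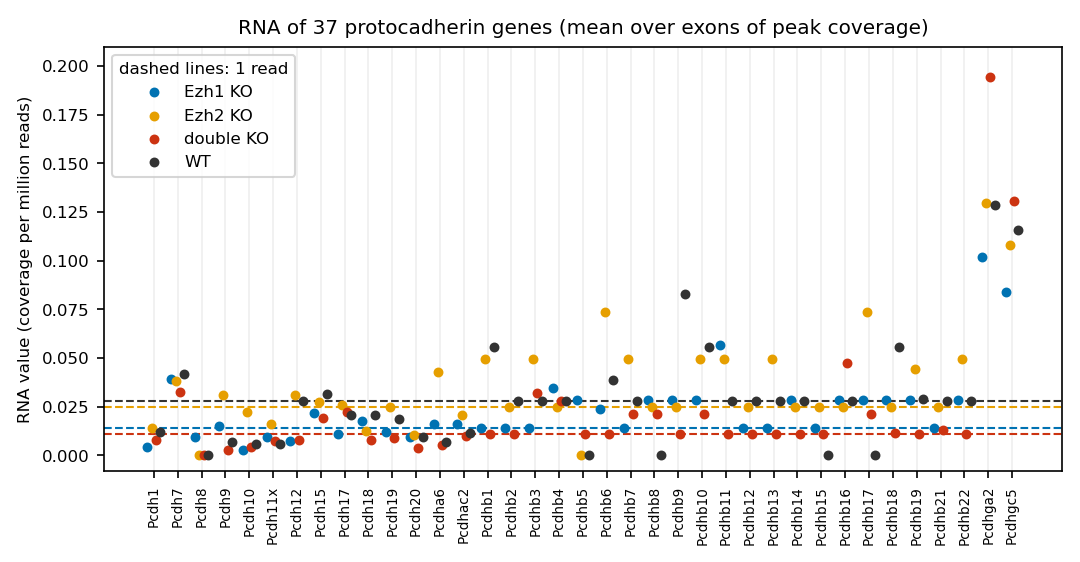
RNA value (exon mean of the peak, coverage per M reads) of 37 protocadherin rows, 1 point per library, with a dashed line at the value of 1 read in each library. Pcdhga2 and Pcdhgc5 lie between 0.0839 and 0.195, and every Pcdhb point is at most 4.48 reads high in its library.

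Other cadherins and genes linked to protocadherins gave a frame for these values. Of 22 classical and related cadherin windows 4 were marked, of 15 large cadherins 3, of 9 desmosomal cadherins 0 and of 27 other synaptic adhesion genes 6, against 12.0% of all windows. Median ratios in the Ezh1 KO were 0.26 for classical, 0.37 for large, -0.01 for desmosomal and 0.28 for synaptic genes. Higher than WT there were 17 of 22 classical, 12 of 15 large, 4 of 9 desmosomal and 19 of 24 synaptic windows with signal, against the 64.3% of all windows given above. In the double KO the medians were 0.12 for classical, 0.18 for large, 0.01 for desmosomal and 0.10 for synaptic genes. No member of these lists was 2-fold different in H3K27me3 in any comparison, higher or lower, and none reached an RNA value of 1 in WT. Cdh22, a classical cadherin, had 71.3 in Ezh1 KO cells, 52.0 in Ezh2 KO cells, 66.5 in double KO cells and 48.7 in WT cells, and Cdh15, the muscle cadherin, 29.5 in Ezh1 KO cells, 19.7 in Ezh2 KO cells, 28.3 in double KO cells and 19.9 in WT cells. Celsr1, which acts in planar cell polarity, had 16.3 in Ezh1 KO cells, 13.6 in Ezh2 KO cells, 19.2 in double KO cells and 11.6 in WT cells, and Cdhr5, a gut brush border protein, 48.6 in Ezh1 KO cells, 36.9 in Ezh2 KO cells, 46.6 in double KO cells and 33.0 in WT cells. Sdk2, a synaptic adhesion protein, had 64.8 in Ezh1 KO cells, 37.1 in Ezh2 KO cells, 57.6 in double KO cells and 42.9 in WT cells. Nlgn1, a neuroligin, had 11.4 in Ezh1 KO cells, 12.5 in Ezh2 KO cells, 14.9 in double KO cells and 11.6 in WT cells. The desmosomal Dsc1 had 8.89 in Ezh1 KO cells, 11.2 in Ezh2 KO cells, 8.76 in double KO cells and 10.6 in WT cells, and Dsg4 had 11.2 in Ezh1 KO cells, 12.2 in Ezh2 KO cells, 12.8 in double KO cells and 10.9 in WT cells.

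Of 14 measured genes that control the choice of clustered promoters, 12 had RNA of at least 1 in WT, against 22.8% of all genes, and 0 windows were marked, against 12.0% of all windows. The 12.0% is not matched for expression. Of background windows, those of the most expressed genes, 0.862% were marked at a CpG ratio of 0.6 or more and 1.73% below it. Of these genes 0 were 2-fold different in RNA in any comparison, higher or lower. Rad21, a cohesin subunit, had RNA of 4.28 in Ezh1 KO cells, 4.71 in Ezh2 KO cells, 4.83 in double KO cells and 3.97 in WT cells, and Setdb1, an H3K9 methyltransferase, had 1.04 in Ezh1 KO cells, 0.959 in Ezh2 KO cells, 0.974 in double KO cells and 1.13 in WT cells. At the windows, Wapal, a cohesin release factor, had 16.6 in Ezh1 KO cells, 22.1 in Ezh2 KO cells, 23.6 in double KO cells and 15.4 in WT cells, and Stag2, a cohesin subunit, had 3.46 in Ezh1 KO cells, 3.32 in Ezh2 KO cells, 4.22 in double KO cells and 3.22 in WT cells. Of 18 windows of cytoplasmic partners and processing enzymes 3 were marked, against the same 12.0%, and 1 was at 0 in every library. Cyfip1, a WAVE complex subunit, had an area of 34.1 in Ezh1 KO cells, 23.3 in Ezh2 KO cells, 20.9 in double KO cells and 37.0 in WT cells, the same order between the double KO and WT as Pcdhg. Fyn, a kinase of the Src family, had 15.6 in Ezh1 KO cells, 24.1 in Ezh2 KO cells, 25.7 in double KO cells and 15.2 in WT cells. RNA of Psen2, a gamma-secretase subunit, was 1.19 in Ezh1 KO cells, 0.858 in Ezh2 KO cells, 0.810 in double KO cells and 1.25 in WT cells, and that of Adam10, a protease that sheds cadherins, was 1.16 in Ezh1 KO cells, 1.16 in Ezh2 KO cells, 1.21 in double KO cells and 0.874 in WT cells. No member of these 2 lists was 2-fold different in either assay. Median H3K27me3 ratios in the Ezh1 KO were 0.04 for the regulators and -0.08 for the partners, and in the double KO 0.05 and 0.01.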

How the data were processed

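H3K27me3 ChIP-seq and RNA-seq were deposited for naive CD4+ T cells of 4 genotypes, 1 library per genotype and assay. Per the submitters' processing notes, Bowtie 0.12.7 and mm9 were used; bcl2fastq, Cufflinks and Cuffdiff are named with no stated use. The ChIP files as deposited hold coverage signal for start-site windows, namely an area and a highest bin per the file headers. The RNA files as deposited hold coverage signal for genes, namely the mean and the median of exon peaks per the file headers, and another number, the count of exons. That values are per M reads, with reads extended to 151 bp over 240 bins, was read from the values. How the authors computed them, and whether input was subtracted, is not given in the sources used here. Neither input nor spike-in was used, so levels are relative.

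Members and gene lists were chosen with earlier results of these data known. Counts had been allowed for in the plan; ratios of the deposited signal were taken instead. A window or gene entered a comparison at 1 or more in the higher library; pseudocounts were 1 (ChIP) and 0.1 (RNA), and 2-fold was the call. The threshold of 1.25-fold was chosen after seeing the data, as were the highest bin with a pseudocount of 0.01 and the CpG content of mm9. The promoter set from RefSeq matched 9 of 52 members (17.3%), all outside the clusters. Of these 9, 8 lay above its median CpG ratio of 0.39 and 8 above its median of 7 CG pairs. Since it held no clustered member, the classes could not be compared on it, and mm9 with its GENCODE annotation was read instead. Of 35 member windows with an annotated start, all lay within 164 bp of it, and 6 pairs of member windows overlap. Genes named with values were each protocadherin outside the clusters, the highest, middle and lowest WT area of each cluster family, members at least 1.5-fold different in H3K27me3 or 2-fold in RNA from WT (none), Ezh1, Ezh2 and 2 members of each list, those whose ratio was largest in the double KO. Alternatives were other pseudocounts, minimum values, fold thresholds and definitions of marked, the highest bin, and TMM, median-of-ratios and background scaling. Calls were tested on simulated data. Python 3.11.15, pandas 2.3.3, numpy 2.4.6, scipy 1.17.1, matplotlib 3.10.9 and pysam 0.24.0 were used.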

Additional observations from a re-analysis of the deposited data

Results flagged for a closer look

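The 2 single-library contrasts for the same deletion pointed in opposite directions at 12 of 37 windows for loss of Ezh1 and at 12 for loss of Ezh2. Given here are the 2 for each deletion at which the counting interval of at least 1 contrast excluded 0. Each direction rests on 1 pair of libraries, and the difference was not tested. For loss of Ezh1, Pcdhb12 was at a log2 ratio of 0.0513 in the Ezh1 KO over WT and at -0.37 in the double KO over the Ezh2 KO. Pcdhgc5 was at 0.20 in the Ezh1 KO over WT and at -0.12 in the double KO over the Ezh2 KO. For loss of Ezh2, Pcdh15 was at -0.31 in the Ezh2 KO over WT and at 0.0152 in the double KO over the Ezh1 KO. Pcdh20 was at 0.0324 in the Ezh2 KO over WT and at -0.35 in the double KO over the Ezh1 KO.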

How the results depend on the processing

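No paired analysis was possible because each genotype has 1 library per assay, and for the same reason no library could be left out. The count of 0 members at 2-fold became, at 1.25-fold in either direction, 8 in the Ezh1 KO against WT, 3 in the Ezh2 KO against WT, 4 in the double KO against WT and 3 in the double KO against the Ezh1 KO. For the double KO against the Ezh2 KO it was 10. At 1.5-fold the double KO had 1 member against the Ezh1 KO and 2 members against the Ezh2 KO, with 2.51% and 0.822% of all windows. With the highest bin in place of the area, where a pseudocount of 1 exceeds each member's value, the median ratio outside the clusters was 0.0892 in the Ezh1 KO against WT, 0.0626 in the double KO against WT and 0.0896 in the double KO against the Ezh2 KO. With a pseudocount of 0.01, chosen after seeing the data, these medians were 0.290, 0.198 and 0.355 in the same order of comparisons. The 5 marked members were 12 at 2 times background, 0 at 6 times, 1 with the median of all windows as background and 1 by the highest bin. Of 490 recomputed ratios of named windows, 429 moved by no more than the distance from the middle to the end of their counting interval. The 61 others all used the highest bin, 35 with a pseudocount of 1 and 26 with 0.01. The other pseudocounts and scalings shift these ratios by little, so the 429 say little about robustness. The RNA count was 0 at each setting tried, where no member was tested at the minimum of 1 and 2 at 0.1. With 1 library per genotype, differences between genotypes cannot be told apart from differences between preparations. RNA of most members lies at or below 2 reads, where no difference is detectable.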
